A study of Mus musculus with 2 samples.

Results

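Loops and domains that touch the Hoxa gene cluster and its neighbour Skap2 were examined in Hi-C data from HPC5, a haematopoietic progenitor line derived from mouse bone marrow, with wild-type Etv6 (Etv6+/+). Hi-C joins pieces of DNA that are near each other in fixed nuclei and counts the joined pairs by sequencing. It measures no expression, so the cell type was not checked against markers and nothing is known here of how active the genes were. There were 2 replicates of this 1 group and no mutant or treated sample, and the labels do not say whether the replicates came from separate cultures. Each list of loops was made by the authors for 1 replicate at a high and a medium setting, and the contact depth behind them is unknown. The 10 genes were Hoxa3, Hoxa4, Hoxa5, Hoxa6, Hoxa7, Hoxa9, Hoxa10, Hoxa11, Hoxa13 and Skap2, of 21521 protein-coding genes in all. They were selected on the loop lists themselves, so their counts of loops are a description and no test was made of them. Of the loops in the medium lists, 8 of 5729 in replicate 2 and 2 of 1276 in replicate 1 had an anchor in at least 1 of these genes.

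Hox genes encode homeodomain transcription factors. They stand in clusters in which the order of the genes along the chromosome matches the order in which they are used along the body axis. In blood, genes from the middle and the 5' end of the Hoxa cluster, Hoxa9 above all, are active in stem and progenitor cells and are shut down as the cells mature. Skap2 encodes an adaptor of Src-family kinase signalling in leukocytes and is the nearest protein-coding gene on the 3' side of the cluster. A loop in these lists consists of 2 anchors, each a bin 5, 10 or 25 kb wide, that the authors' program marked as joined. The high lists hold no loop on 25 kb anchors. A domain is a stretch of the chromosome marked as contacting itself.

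In mm10 the listed Hoxa genes lay between 52169059 and 52260880 on chromosome 6, with Hoxa3 at the left and Hoxa13 at the right end. Skap2 lay to the left, at 51859165 to 52012549. Skap2 and the 8 listed Hoxa genes with a start site in the RefSeq promoter table were all transcribed towards the left, from the minus strand. The start sites of Skap2, Hoxa3, Hoxa5, Hoxa6, Hoxa7, Hoxa9 and Hoxa13, 7 of the 9 with a listed start, lay in a loop anchor, against 14.9% of the 17274 protein-coding genes with one. Those of Hoxa10 and Hoxa11 lay in none. The starts of Hoxa3, Hoxa5, Hoxa6 and Hoxa7 lay in the same 25 kb anchor. Since the genes were selected on these lists, nothing is read from the difference.

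The promoters below are shown because they mark the 4 kinds of position in this map: the left partner of the cluster (Skap2), the right edge of the anchors that reached left (Hoxa9), the anchors that reached right (Hoxa13), and the stretch between them that no anchor touched (Hoxa10, at the first of its 2 listed starts). They are the RefSeq sequences of GRCm38.p6, from 250 bases before the start to 50 after it, 5′ to 3′ on the minus strand, at chr6:52012500-52012799, chr6:52227321-52227620, chr6:52260831-52261130 and chr6:52240805-52241104. Capitals mark AGGGGGC, letters that form part of the motif of the boundary protein CTCF.
Skap2: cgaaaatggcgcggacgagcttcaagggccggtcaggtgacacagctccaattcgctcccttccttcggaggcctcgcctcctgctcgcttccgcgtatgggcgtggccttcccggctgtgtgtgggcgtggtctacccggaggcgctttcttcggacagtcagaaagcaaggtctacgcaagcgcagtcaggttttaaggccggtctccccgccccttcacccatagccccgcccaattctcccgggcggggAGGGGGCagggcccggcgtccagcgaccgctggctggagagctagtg
Hoxa9: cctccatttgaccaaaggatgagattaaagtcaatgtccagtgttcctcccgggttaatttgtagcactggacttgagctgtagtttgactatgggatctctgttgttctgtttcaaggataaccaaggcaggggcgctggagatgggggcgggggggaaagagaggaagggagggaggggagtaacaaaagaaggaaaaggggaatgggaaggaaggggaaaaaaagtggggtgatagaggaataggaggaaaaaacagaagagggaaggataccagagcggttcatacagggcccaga
Hoxa13: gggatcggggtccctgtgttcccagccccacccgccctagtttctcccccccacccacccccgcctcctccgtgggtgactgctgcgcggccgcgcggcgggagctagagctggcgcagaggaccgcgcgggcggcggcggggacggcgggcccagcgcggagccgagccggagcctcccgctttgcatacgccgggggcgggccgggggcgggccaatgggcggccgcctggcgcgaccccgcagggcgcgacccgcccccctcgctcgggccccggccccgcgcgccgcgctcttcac
Hoxa10: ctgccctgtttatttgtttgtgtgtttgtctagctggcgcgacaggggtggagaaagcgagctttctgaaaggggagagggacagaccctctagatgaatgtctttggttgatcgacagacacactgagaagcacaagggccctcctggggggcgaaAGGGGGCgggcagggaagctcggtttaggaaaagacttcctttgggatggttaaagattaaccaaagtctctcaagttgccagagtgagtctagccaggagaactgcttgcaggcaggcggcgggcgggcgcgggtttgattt

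The windows were searched on both strands for AGGGGGC. They were also searched for AGGTGGC, another form of the same part of the CTCF motif, and for TATAAA, the TATA box. Over all 32851 promoter windows these 3 motifs were found in 10.6, 6.15 and 13.6%. Among the listed genes AGGGGGC stood on the gene's own strand in the windows of Skap2 and Hoxa10, and AGGTGGC in that of Hoxa11. TATAAA was found on the opposite strand at the second Hoxa10 start. The windows of Hoxa3, Hoxa5, Hoxa6, Hoxa7, Hoxa9 and Hoxa13 held none of the 3. The Hoxa13 window was the richest in G and C of the 10 windows of these genes, at 81.0%, and the Hoxa9 window the poorest, at 49.7%, while the median of all windows was 52.7%.

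Between Hoxa9 and Hoxa10 lies Mir196b, the gene of a microRNA known to act on Hox transcripts. Its hairpin, at 52230081 to 52230165, began 82 bp beyond the nearest anchor. The mature sequence is shown because 2 genes with the same seed, Mir196a-1 on chromosome 11 and Mir196a-2 on chromosome 15, lie in the Hoxb and Hoxc clusters. The seed, bases 2 to 8, is in capitals, and sequences are from RefSeq, GRCm38.p6.
mmu-miR-196b-5p: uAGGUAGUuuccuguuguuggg
mmu-miR-196a-5p: uAGGUAGUuucauguuguuggg
The 22 bases of the mature forms differed at 1 position counted from the 5′ end, C12A, outside the seed, with the base of miR-196b given before the position and that of miR-196a after it. The mature miR-196b is read from the minus strand at chr6:52230129-52230150.

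Loops left the Hoxa cluster in opposite directions from 2 parts of it. In replicate 2, 4 loops joined the stretch from Hoxa5 to Hoxa9, with the start of Hoxa3, to places on the left. Another 3 joined the stretch around Hoxa13 to places on the right. In replicate 1 the only loop with an anchor in the cluster joined Hoxa13 to the right. The right edge of the anchors that reached left was at 52229999 and the left edge of those that reached right at 52250001. No loop of either medium list crossed the 20 kb between them, from 52230000 to 52250000, which held Hoxa10, Hoxa11, Mir196b, the antisense gene Hoxa11os and 1 more annotated gene.

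**Figure D1:**
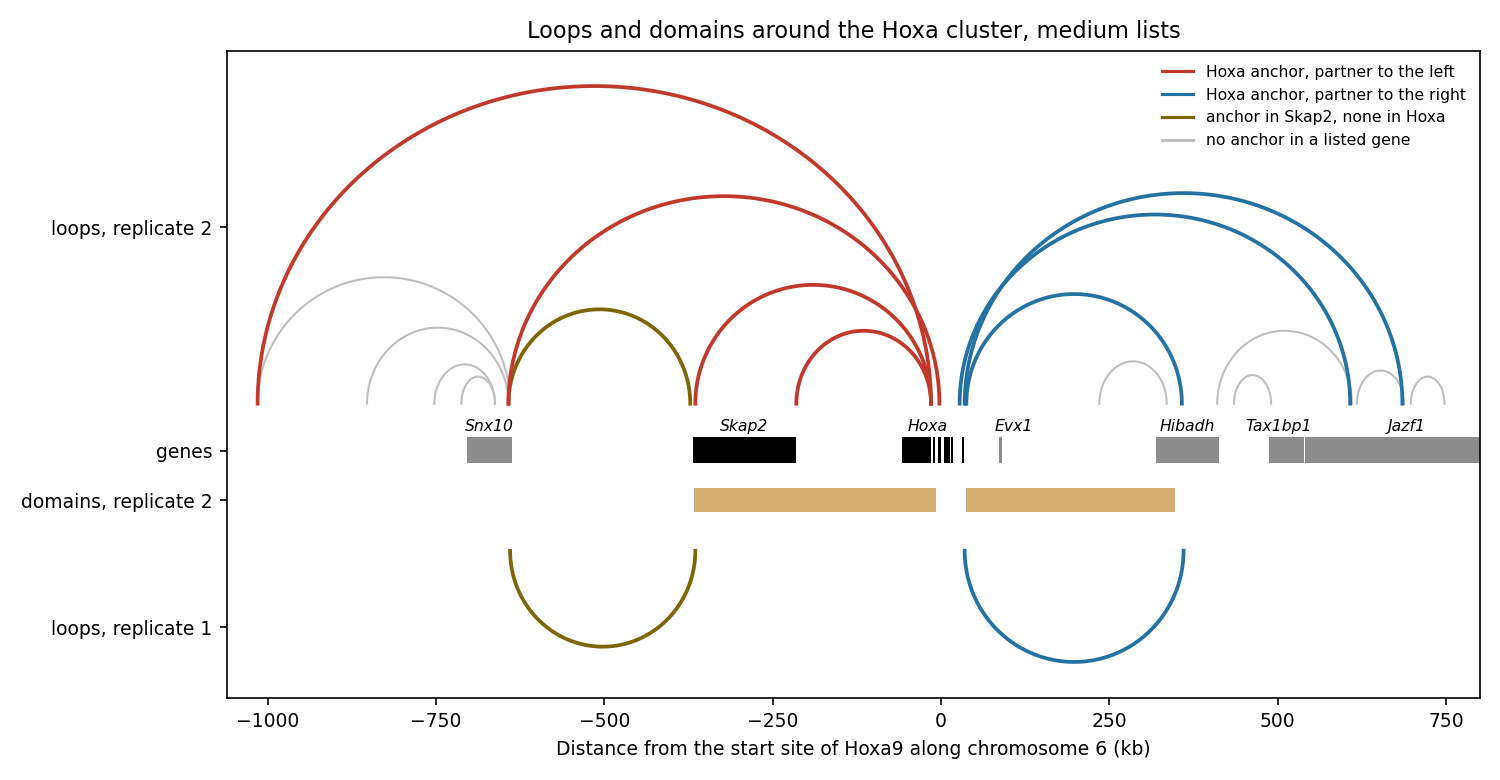
Loops (arcs) and domains (bars) by distance in kb from the start of Hoxa9, with replicate 2 loops above and replicate 1 loops below the genes, listed genes in black. Arc height follows the span. The 4 arcs that reach left from the cluster and the 4 that reach right, 1 of them in replicate 1, share no end and none crosses from one side to the other.

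The anchor at 52200001 to 52224999, a 25 kb bin, was an end of 3 loops, all in replicate 2. It held Hoxa5, Hoxa6 and Hoxa7 in full, 29.7% of Hoxa3 including its start, and 44.5% of Hoxa9 without its start. As annotated, Hoxa3 is 44009 bp long and encloses Hoxa4, Hoxa5 and Hoxa6, with its listed start between Hoxa6 and Hoxa7. Hoxa5, Hoxa6 and Hoxa7 are central genes of the cluster with roles in patterning the trunk, and in this bin they cannot be told apart. Its loops ended at 52000001 to 52024999 (200 kb away, n = 59), at 51850001 to 51874999 (350 kb, n = 50) and at 51200001 to 51224999 (1000 kb, n = 24). The number n is a whole number that the authors' files attach to each loop without defining it, and it is larger for wider anchors and shorter spans.

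Skap2 was the partner in the shorter 2 of these loops, and each reached a different end of the gene. The anchor 200 kb away held the start site of Skap2, at 52012549, and 8.2% of the gene. The anchor 350 kb away held its 3' end and 10.3% of the gene. The middle of Skap2 was thus inside the longer loop and in no anchor.

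Hoxa9 had a further loop that it shared with no other listed gene. It was 640 kb long, stood in both the high and the medium list of replicate 2 and had n = 23. Its anchor of 10 kb, at 52220001 to 52229999, held all of Hoxa9 with its start and no other listed gene. That anchor also held the start of the long non-coding RNA gene Gm52902, at 52227504, which cannot be told apart from Hoxa9 in this bin. The other anchor, at 51580001 to 51589999, lay in Snx10, which encodes a sorting nexin of endosomes. This 640 kb loop was the only loop with an anchor at a Hoxa gene other than Hoxa13 in the high lists.

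The same place in Snx10 was joined to the 3' end of Skap2 in both replicates. The replicate 2 loop, of 270 kb on 10 kb anchors, ran from 51580001 to 51859999 with n = 23. That of replicate 1, of 275 kb on 25 kb anchors, ran from 51575001 to 51874999 with n = 25. The left midpoints lay 2.5 kb apart and the right ones 7.5 kb. The replicate 2 anchor reached only 835 bp, or 0.5%, into Skap2.

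The loops of the cluster to the left ended at 4 places. They were a predicted gene, Gm38821, at 51200001 to 51224999, the 3' part of Snx10, and the 3' end and the start of Skap2. Among these 4 places themselves there were 2 further joined pairs in replicate 2. They were Snx10 with Skap2's 3' end, described above, and Gm38821 with Snx10, by a loop of 375 kb with n = 39, whose anchor in Snx10, at 51575001 to 51599999, enclosed that of the Hoxa9 loop. The start of Skap2 was joined to the cluster alone. The share of loop partners elsewhere in the genome that are joined to each other was not computed.

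Hoxa13, the last gene at the 5' end of the cluster, needed for the limb ends and the genital tract, was the Hoxa gene with a loop in both replicates. In replicate 2 its start was joined over 320 kb to Hibadh, a gene of mitochondrial valine breakdown. One anchor, at 52260001 to 52269999, held its start site and the whole of the long non-coding RNA gene Hottip, and the other lay at 52580001 to 52589999. The replicate 1 loop, 325 kb long, had its anchors at 52250001 to 52274999 and at 52575001 to 52599999. The midpoints lay 2.5 kb apart at both ends. The values of n were 27 on 10 kb anchors in replicate 2 and 34 on 25 kb anchors in replicate 1, which cannot be compared across widths.

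The other 2 loops of Hoxa13 were seen in replicate 2 alone and reached Jazf1, which encodes a zinc finger protein of a chromatin-modifying complex. The shorter, of 580 kb, joined 52250001 to 52259999, with the 3' part of Hoxa13 and not its start, to 52830001 to 52839999 and had n = 18. The longer, of 650 kb, joined 52250001 to 52274999, with all of Hoxa13 and Hottip, to 52900001 to 52924999, where 1 of the 2 listed starts of Jazf1 lies, and had n = 79. A loop of 70 kb lay within Jazf1, from 52840001 to 52849999, beside the anchor of the 580 kb loop and not overlapping it, to 52910001 to 52919999, inside that of the 650 kb loop.

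**Figure D2:**
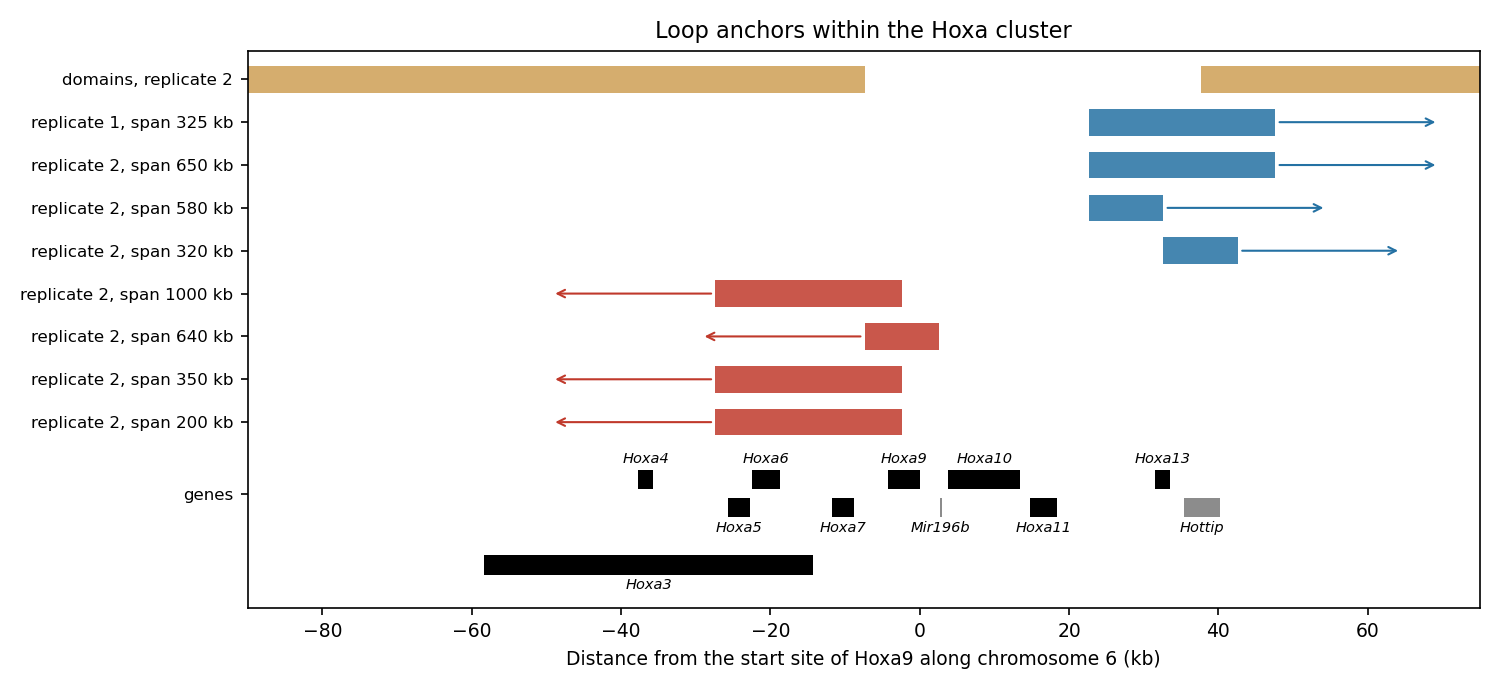
Anchors of the 8 loops that end in the Hoxa cluster, by distance in kb from the start of Hoxa9, each drawn at its true width with an arrow towards its partner, and the domains of replicate 2 at the top (cut at the plot's edges). Red anchors reach left and blue ones right, and Hoxa10 and Hoxa11 lie under neither.

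By gene, Hoxa9 had 4 anchored loops in replicate 2. Hoxa3, Hoxa5, Hoxa6, Hoxa7 and Hoxa13 had 3 each, and so did Skap2. In replicate 1 Hoxa13 and Skap2 had 1 each and the others 0. The loops of Hoxa3, Hoxa5, Hoxa6 and Hoxa7 were the same 3 loops. They were also 3 of the 4 loops of Hoxa9, on an anchor without its start. These genes are therefore not independent observations. In all, 7 of the 10 genes had a base in an anchor, beside 30.0% of all protein-coding genes. The rule that chose the genes used these lists, so nothing is read from the difference.

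The remaining 3 genes differed among themselves. Hoxa4 had no anchor and lay 8298 bp from the nearest one, inside all 4 loops that reached left. Hoxa2, which is not among the listed 10 and acts in the hindbrain and face, likewise lay inside those 4 loops, 35170 bp from an anchor. Hoxa10, a gene with roles in the uterus and in blood progenitors, lay 1198 bp from the nearest anchor, and Hoxa11, which acts in the forearm, kidney and uterus, 4191 bp. Both were outside every anchor and inside no loop. Such genes were common: 51.3% of all protein-coding genes were neither at an anchor nor inside a loop. With bins of 10 and 25 kb, distances of this size lie within the width of an anchor.

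**Figure D3:**
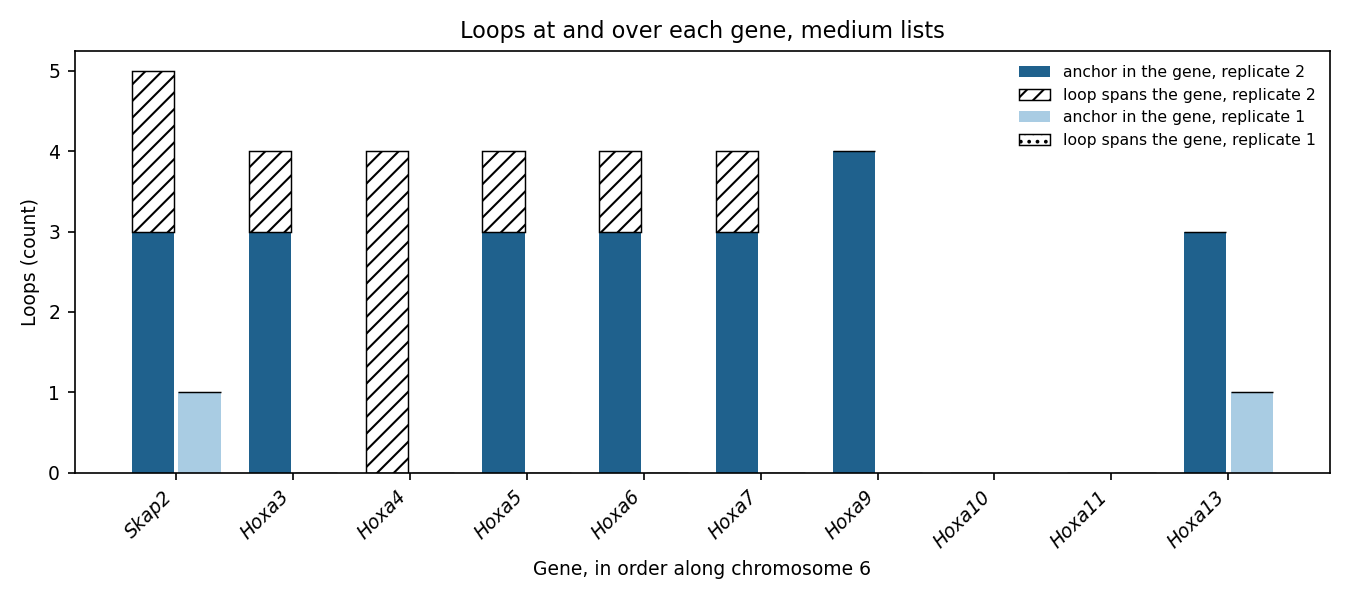
Number of loops with an anchor in each gene (filled) and of loops that enclose it without touching it (hatched), in the medium lists of replicate 2 (left bar) and replicate 1 (right bar), genes in chromosome order. Hoxa4 has only enclosing loops, 4 in replicate 2, and Hoxa10 and Hoxa11 have no loop of either kind.

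In the domain list of replicate 2, drawn from the same sample as its loops, 1 domain overlapped the cluster. It ended within the cluster, near the stretch that no loop crossed. This domain of 360 kb, from 51860001 to 52220000, held Hoxa3, Hoxa4, Hoxa5, Hoxa6 and Hoxa7 in full and all of Skap2 but its last 836 bp. The next domain, of 310 kb, from 52265001 to 52575000, began beyond the cluster and held no Hox gene. It held Evx1, a homeobox gene beside the cluster, in full and part of Hibadh. The 45 kb between the 2 domains, from 52220001 to 52265000, held Hoxa9, Hoxa10, Hoxa11 and Hoxa13 and lay in no domain. The loop of Hoxa9 and those of Hoxa13 therefore started in the stretch between the domains or across its edge. That list held 339 domains over the whole genome, with a median length of 365 kb. The share of all protein-coding genes that lie in no domain was not computed, so nothing is read from the place of these 4 genes.

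Each of these 2 domains had a loop whose anchor midpoints lay within 20 kb of both of its edges. For the left domain it was the 350 kb loop from the Hoxa5 to Hoxa7 anchor to the 3' end of Skap2, in replicate 2. For the right domain it was the Hoxa13 to Hibadh loop, in replicate 2 and also in replicate 1. Such a loop was found for 39.5% of the 339 domains of replicate 2. The list of replicate 1 held 3 domains in all and none in the 2 Mb of chromosome 6 around these genes.

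Of the 8 loops of the listed genes in replicate 2, 4 (50%) were at least 500 kb long, beside 10.6% of all its loops. In replicate 1 it was 0 of 2, beside 7.13%. All 4 had an anchor in the cluster: they were the 1000 and 640 kb loops to the left and the 650 and 580 kb loops to the right. The spans of the listed genes' loops ran from 200 to 1000 kb with a median of 465 kb in replicate 2, and were 275 and 325 kb in replicate 1, against a median of 150 kb for all loops of either list.

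The long loops of the cluster differed in n among themselves. Among all loops of replicate 2 with the same anchor width, n was at the 74.0th percentile for the 650 kb loop of Hoxa13 and at the 2.42nd for the 1000 kb loop (25 kb anchors). It was at the 23.7th for the 640 kb loop of Hoxa9 and at the 6.95th for the 580 kb loop of Hoxa13 (10 kb anchors). Since n is larger for shorter spans, the loops were also set beside long loops alone. The 79 of the 650 kb loop was at the 99.1st percentile of n among the 459 loops of 500 kb or more on 25 kb anchors in replicate 2, whose median was 37. The 1000 kb loop, with 24, was at the 11.1st percentile of the same loops. On 10 kb anchors the 640 kb loop of Hoxa9, with 23, was at the 71.5th percentile of 144 loops of that length, whose median was 20, and the 580 kb loop of Hoxa13, with 18, at the 30.6th. These long loops include spans well beyond those of the cluster.

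**Figure D4:**
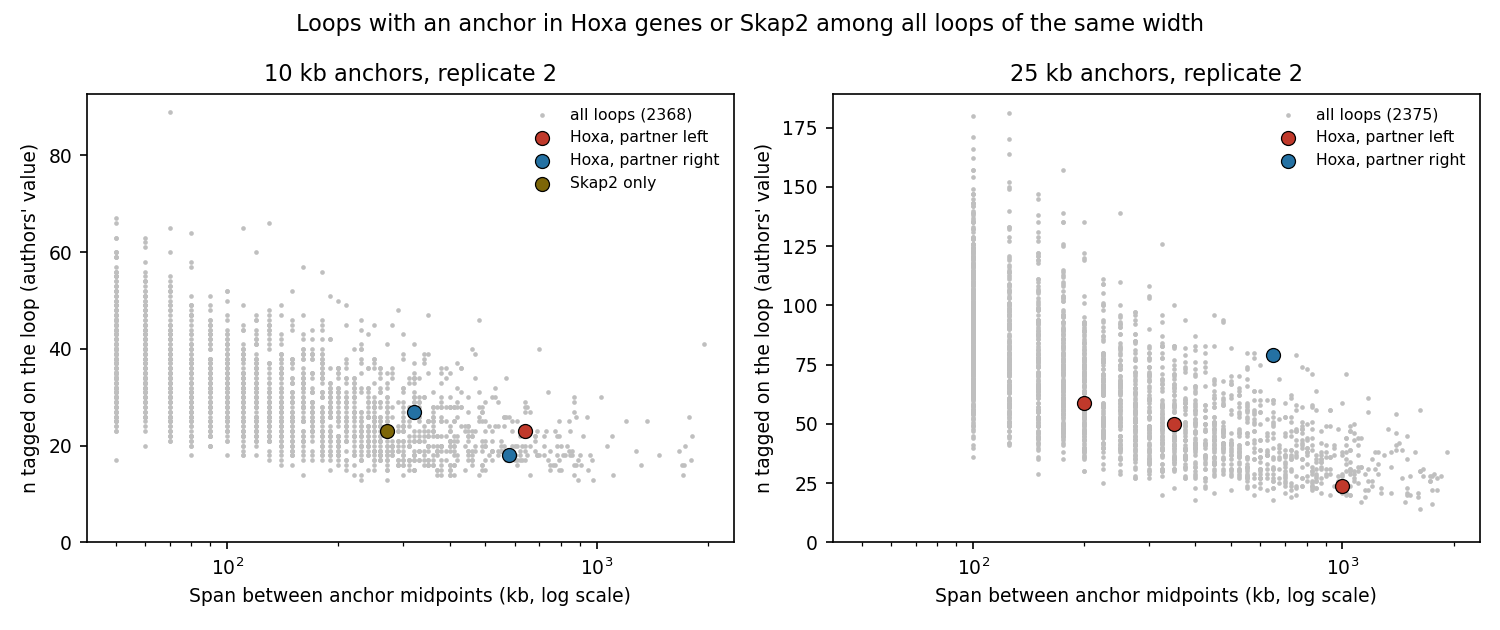
The number n of each replicate 2 loop against its span in kb (log scale), for 10 kb anchors (left) and 25 kb anchors (right), with loops of the listed genes as large points over all loops in grey. The blue point at 650 kb and n = 79 lies near the top of the long loops, and the red point at 1000 kb and n = 24 near the bottom.

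Both loops of the listed genes in replicate 1 were found in replicate 2, with both anchor midpoints within 20 kb, where 80.6% of all replicate 1 loops were. In the other direction 2 of 8 were found, where 18.2% of all replicate 2 loops were. None of the 4 loops that reached left from the cluster was among them. The left-hand loops therefore rest on replicate 2 alone, whose list was the longer. Most of the replicate 1 list, 1074 of its loops, stood on 25 kb anchors, 202 on 10 kb anchors and none on the narrowest.

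In the 2 Mb around these genes 15 loops of replicate 2 had their centre, where the median of 1306 stretches of 2 Mb over the genome was 4 and 17 stretches, or 1.3%, had as many. Replicate 1 had 2, a number reached by 27.0% of stretches, with a median of 1. The window was set around genes selected on these same lists, so nothing is read from either share. The stretches also began at multiples of 2 Mb, which the window did not. Of the other protein-coding genes in that window Snx10, Hibadh, Tax1bp1, Jazf1 and Creb5 had a base in an anchor, and Hoxa2 and Evx1 did not. Creb5 extends past the right end of the window, and its anchors lay beyond that end. Evx1 lay inside 3 loops of Hoxa13 in replicate 2 and inside 1 in replicate 1.

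The other Hox clusters had fewer loops in replicate 2. The Hoxa cluster had 7, against 2 for Hoxb, 2 for Hoxc and 4 for Hoxd, and of these 4, 0, 0 and 1 were 500 kb or longer. Loops reached both ways from Hoxa (4 left, 3 right), Hoxb (1 and 1) and Hoxd (1 and 3), and from Hoxc 2 reached right and 0 left. No loop enclosed any of the 4 clusters or had both anchors inside one. Of the 4, only Hoxa was overlapped by a domain of replicate 2. In replicate 1 Hoxa, Hoxb and Hoxc had 1 loop each, all to the right and under 500 kb, and Hoxd had 0. The genes at an anchor there numbered 1 in Hoxa, 4 in Hoxb and 3 in Hoxc. The clusters' difference in replicate 2 was therefore not seen in replicate 1, and it was not tested.

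Genes that act with or on the Hoxa genes, or are related to or act with SKAP2, were at anchors in varying numbers. Of 9 Hox partner genes 2 had a base in an anchor (22.2%), Meis1, with a 140 kb loop in both replicates, and Meis3, both of which encode homeodomain partners of Hox proteins. Of 16 regulators of Hoxa transcription 7 had one (43.8%). They were Kmt2a, whose methyltransferase keeps Hox genes active, Mllt1, Mllt3, Aff1 and Aff4, genes of elongation complexes, Eed, a Polycomb gene, and the cohesin gene Rad21. Mllt3 had 3 loops of 300 to 550 kb, in replicate 2 alone. Of these 7 genes only Kmt2a was at an anchor in replicate 1, and none of their loops was found in both replicates. Of 8 relatives and signalling partners of SKAP2 7 had one (87.5%), among them its paralogue Skap1, with a 250 kb loop in both replicates, and the Src-family kinase genes Fyn, Lyn and Fgr. Gene length differed too, and its part in these counts was not tested: the median length was 139.2 kb, 40.7 kb and 135.3 kb in the 3 lists, against 17.4 kb for all protein-coding genes, of which 30.0% had a base in an anchor. By start site the counts were 1 of 5, 3 of 13 and 0 of 4 with a listed start. The share over all protein-coding genes with one was 14.9%. Taken by itself, replicate 1 gave 1, 1 and 4 genes of the 3 lists with a base in an anchor, beside 9.33% of all protein-coding genes.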

How the data were processed

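Per the labels' protocols, HPC5 cells were fixed in 2% formaldehyde for 10 min and processed with the Arima Hi-C kit. HiC-Pro 2.11.1 and the build mm10 stand in the submitters' processing notes. Names of the loop and domain callers were not given in the sources used here. Per replicate the authors deposited 2 loop lists (high and medium setting) and 1 domain list on bins of 5000 bp, as positions, with a number n per loop that the files do not define. All 3556 high-setting loops recurred in the medium lists, which were used.

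A gene was at an anchor when at least 1 base of its RefSeq body (GRCm38.p6, which mm10 names) lay in it, and inside a loop when the outer edges enclosed it and no anchor touched it. Loops matched between replicates when both midpoints lay within 20 kb, and span is the distance between midpoints. Domain starts were moved by 1 base. Left out were 345 genes of other scaffolds, with coordinates of their own. Start sites were read from the RefSeq promoter table, in which all 1841 overlapping windows of opposite strands were reverse complements. Percentiles of n count ties as 50%. Named genes were the listed ones, those at their partner anchors, the protein-coding genes of a 2 Mb window around them and the members of 3 lists. The genes and lists were chosen with earlier results of these data known. Protein sequences were not used here, and some genes of the window and the lists are not reported here. Matching and anchor calls were tested on simulated data (Python 3.11.15, numpy 2.4.6, pandas 2.3.3). With 1 group there was no comparison of conditions and no p-value.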

Additional observations from a re-analysis of the deposited data

How the results depend on the processing

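The counts rest on replicate 2 and on the medium setting. With the high lists, which hold no 25 kb anchors, the loops with an anchor in a listed gene numbered 4 in place of 10 (both replicates added), the listed genes at an anchor 3 in place of 7, the loops enclosing a listed gene 1 in place of 4 and the loops found in both replicates 0 in place of 4 (2 pairs), and the share of all protein-coding genes at an anchor was 16.4%. Leaving out a replicate gave 2 to 8 loops, 2 to 7 genes, 0 to 4 enclosing loops, 0 to 1 domain overlapping a listed gene, 0 to 50% of loops with 500 kb or more (40% with both) and 9.33 to 28.1% of all genes at an anchor, the lower value being that without replicate 2 each time. Anchors widened by 10 kb touched all 10 genes, Hoxa4, Hoxa10 and Hoxa11 included, and left 2 enclosing loops. The share of all protein-coding genes touched by widened anchors was not computed, so nothing is read from that count. Counting gene ends gave 7 listed genes and 22.5% of all genes, and counting start sites, an alternative chosen after seeing the data, gave 7. The loops found in both replicates numbered 4 with tolerances of 10 or 50 kb or with overlapping anchors. No paired analysis was possible because there is 1 group. The depth behind the lists is unknown, so a loop missing from replicate 1 was not shown to be absent there.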

Other observations

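Beyond the loops of the Hoxa genes and Skap2, replicate 2 listed shorter loops among their neighbours on chromosome 6, and replicate 1 listed none of them. Around Snx10, 3 loops of 50, 90 and 210 kb had an anchor in the gene and a partner to its left. The 90 kb loop started at 51470001 to 51479999, an anchor shared by Hnrnpa2b1 and Cbx3, which encode an RNA-binding protein and a heterochromatin protein. To the right of the cluster, the start of Hibadh lay in an anchor joined over 200 kb to Jazf1, with n = 71, in a 25 kb anchor that encloses the one reached by the 580 kb loop of Hoxa13. Tax1bp1, which encodes an autophagy receptor that restrains NF-kB signalling, had a 55 kb loop on 5 kb anchors. It was the only one on anchors of that width within the window.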
